A study of Mus musculus with 24 samples.

Results

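Linoleic acid (LA), a polyunsaturated fatty acid of the omega-6 series, was compared with vehicle at day 6 of differentiation in C2C12 cells, a mouse myoblast line, of wild-type genotype per the labels. The comparison rests on 8 of the 24 libraries of the series: the 4 that the labels give as linoleic acid at day 6 and the 4 they give as vehicle at day 6. Growing cells had 10% fetal bovine serum, and a change to 2% horse serum started differentiation in every group. LA was given at 100 µM, bound to bovine serum albumin, during differentiation. What the vehicle held, including whether it held albumin, is not given in the sources used here. Cells given recombinant mouse ANGPTL4 at 10 ng/mL and collected at day 6, and the LA and vehicle cells of day 2 (4 libraries a group), were used only for the 2 comparisons at the end. Nothing in the labels says that replicates came from separate cultures, so the p-values measure the spread between these libraries.

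C2C12 cells stop dividing when serum is lowered, fuse into multinucleated myotubes and build contractile sarcomeres, while some cells stay single and keep features of muscle stem cells. Long-chain fatty acids enter these cells, are bound to coenzyme A, and are stored as triglyceride in droplets or carried into mitochondria for oxidation. They are also ligands of the PPAR nuclear receptors, whose known target genes in muscle include Angptl4, Cpt1a, Pdk4, Plin2 and Ucp3.

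Library totals were 8.19 to 15.2 M counts with LA and 9.85 to 12.6 M with vehicle. Values are given as CPM, counts divided by a library total that was scaled with a TMM factor, on the usual per-M scale. The 3′ end method counts transcript ends, so CPM are not divided by transcript length. Within a group, library pairs had a Pearson r across genes between 0.9907 and 0.9934 (LA) or between 0.9919 and 0.9935 (vehicle). In a principal component analysis of the 8 libraries the first component held 36.8% of the variance and put the LA libraries at -20.6 to -9.48 and the vehicle libraries at 10.9 to 18.7. The second held 15.8% and spread libraries within each group, from -15.4 to 15.7 with LA and from -12.0 to 11.5 with vehicle. All 10 muscle markers that were listed to check the cell type were present in every library.

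LA changed 2237 of 12994 tested genes at day 6 (17.2%) at an adjusted p under 0.05 in the edgeR quasi-likelihood test, 1018 higher (7.83%) and 1219 lower (9.38%). Most differences were small: rises of at least 2-fold were seen in 102 genes (0.785%), and falls of that size in 33 (0.254%). Higher calls made up 45.5%, but 59.1% when scaling used only the library totals, and 49.7% when it used the size factors of DESeq2. In 1309 genes all 4 LA values lay above all 4 vehicle values (10.1%), and in 1635 they lay below (12.6%).

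Genes that handle fatty acids were among the largest rises. Angptl4, which encodes a secreted inhibitor of lipoprotein lipase, measured 302, 261, 306 and 269 CPM in the LA libraries and 20.5, 21.9, 20.2 and 20.7 CPM in the vehicle libraries (log2FC 3.77, SE 0.066, adjusted p = 6.17e-30). Each LA library held more than 10 times the level of any vehicle library. Lpl, the gene of lipoprotein lipase itself, measured 26.00, 42.8, 34.8 and 47.7 CPM in the LA libraries and 3.77, 5.28, 8.34 and 6.85 CPM in the vehicle libraries (log2FC 2.63, SE 0.24, adjusted p = 2.22e-07). Transcripts of the enzyme and of its inhibitor were thus both higher with LA than with vehicle at day 6. In the list of fatty acid uptake and activation 4 of 17 members rose and 1 fell (median log2FC 0.054, against -0.0096 over all genes). Slc27a3, an acyl-CoA synthetase of the fatty acid transport family, rose from 2.72 ± 0.253 to 4.604 ± 0.314 CPM (log2FC 0.76, adjusted p = 0.000417), and Vldlr, a lipoprotein receptor, rose from 21.2 ± 4.22 to 29.5 ± 2.08 CPM (log2FC 0.48, adjusted p = 0.00100). Cd36, the fatty acid translocase, did not pass (105, 101, 102 and 107 CPM with LA, 84.7, 96.9, 96.1 and 86.4 CPM with vehicle, log2FC 0.19, SE 0.11, adjusted p = 0.280). Its groups did not overlap, and it was called higher in 1 of 16 alternatives.

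Mitochondrial fatty acid oxidation rose at its entry step and, by less, along the pathway. Cpt1a encodes carnitine palmitoyltransferase of the liver type, the step that commits long-chain fatty acids to mitochondria. It measured 247, 239.9, 254 and 258 CPM in the LA libraries and 73.3, 70.9, 76.2 and 68.6 CPM in the vehicle libraries (log2FC 1.79, SE 0.049, adjusted p = 7.18e-24). The groups were far apart, and the 4 LA values lay close together. In the mitochondrial oxidation list 9 of 23 tested members rose and none fell (median log2FC 0.12). Acaa2, the last thiolase of the β-oxidation spiral, measured 121, 100.4, 122 and 105 CPM in the LA libraries and 77.03, 70.9, 65.3 and 77.9 CPM in the vehicle libraries (log2FC 0.63, SE 0.071, adjusted p = 1.19e-07). Mlycd, which removes malonyl-CoA, the inhibitor of carnitine palmitoyltransferase, rose from 14.8 ± 1.301 to 19.7 ± 0.4999 CPM (log2FC 0.403, adjusted p = 0.000550), and Etfb, part of the flavoprotein that passes electrons from β-oxidation, rose from 32.3 ± 2.67 to 41.4 ± 2.56 CPM (log2FC 0.36, adjusted p = 0.000570). Cpt1b, the muscle form, was too low in the counts to be tested. In the peroxisomal list 5 of 25 rose and none fell (median 0.067), among them Ech1, a dienoyl-CoA isomerase needed for polyunsaturated chains, which rose from 52.6 ± 2.82 to 68.7 ± 4.702 CPM (log2FC 0.39, adjusted p = 8.07e-05), and Abcd2, a peroxisomal importer of long acyl chains, which rose from 3.77 ± 0.733 to 5.84 ± 1.19 CPM (log2FC 0.61, adjusted p = 0.00748).

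Uncoupling proteins and a brake on glucose oxidation rose with these genes. Ucp2, a mitochondrial carrier, measured 343, 266, 355 and 267 CPM in the LA libraries and 139, 135, 123 and 114 CPM in the vehicle libraries (log2FC 1.27, SE 0.083, adjusted p = 3.39e-11). Ucp3, the carrier named for muscle, was scarce and measured 3.38, 2.48, 2.697 and 2.27 CPM in the LA libraries and 0.737, 1.395, 0.809 and 0.726 CPM in the vehicle libraries (log2FC 1.59, SE 0.29, adjusted p = 0.000107). The lowest LA value of Ucp3 stood above the highest vehicle value, which came from replicate 2. Pdk4, a kinase that switches off pyruvate dehydrogenase when fat is burned, measured 111, 99.8, 126 and 111 CPM in the LA libraries and 37.7, 34.7, 41.6 and 35.6 CPM in the vehicle libraries (log2FC 1.58, SE 0.11, adjusted p = 3.50e-10). Pdk1, another kinase of this family, rose from 77.6 ± 5.99 to 112 ± 8.27 CPM (log2FC 0.53, adjusted p = 3.72e-05). In the list of the pyruvate dehydrogenase switch these were the 2 of 14 members that rose, while 3 fell, Pdp2, Pdpr and Pdhb (median log2FC -0.054; 1 fell without vehicle replicate 1, vehicle replicate 2 or LA replicate 2).

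Droplet genes rose in part. Plin2, the coat protein of small droplets, measured 162, 167, 175 and 175 CPM in the LA libraries and 85.1, 88.1, 87.9 and 81.3 CPM in the vehicle libraries (log2FC 0.99, SE 0.051, adjusted p = 9.91e-16), with a wide gap between the groups. Plin4, a coat protein of the same family, measured 17.2, 28.8, 16.8 and 24.8 CPM in the LA libraries and 2.78, 2.89, 5.42 and 3.22 CPM in the vehicle libraries (log2FC 2.59, SE 0.202, adjusted p = 2.76e-09). Lipe, hormone-sensitive lipase, rose from 3.43 ± 0.628 to 8.04 ± 0.782 CPM (log2FC 1.24, adjusted p = 4.53e-07). Over the droplet list 5 of 15 tested members rose (3 without vehicle replicate 3) and 2 fell, Fitm2 and Mgll, the latter lost in 7 of 16 alternatives (adjusted p up to 0.207). Triglyceride synthesis moved little, with 1 of 12 higher, Agpat3, and 1 lower, Agpat1 (lost in 10 of 16 alternatives, adjusted p up to 0.236). Of the receptors and partners, Pparg rose from 5.92 ± 0.759 to 7.99 ± 0.353 CPM (log2FC 0.44, adjusted p = 0.0167), a call that was lost without vehicle replicate 1 (adjusted p = 0.0693), and Cebpa, an adipogenic transcription factor, rose from 15.6 ± 0.882 to 22.9 ± 2.49 CPM (log2FC 0.55, adjusted p = 0.000115). Ppard, the PPAR form common in muscle, measured 33.4, 31.6, 34.9 and 31.6 CPM with LA and 37.2, 34.5, 31.3 and 31.4 CPM with vehicle and did not pass (adjusted p = 0.830).

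**Figure D1:**
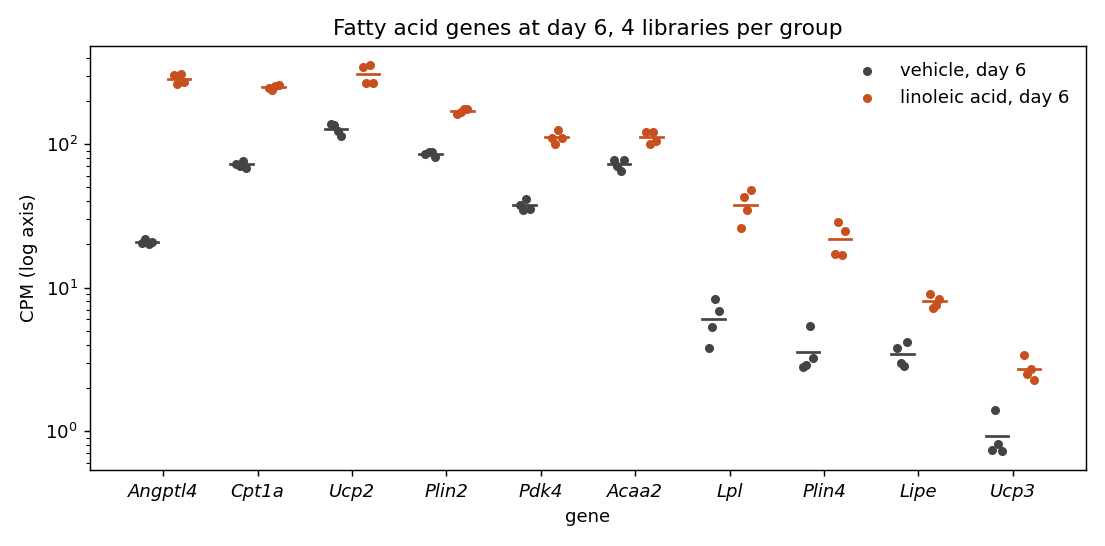
CPM on a log axis for 10 genes of fatty acid handling, each point a library at day 6 (vehicle grey, LA orange) and each short line the mean of 4 libraries. In each of the 10 genes the LA points lie above the vehicle points, with the widest gap in Angptl4.

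Enzymes and a receptor of oxylipins, the signalling lipids made from polyunsaturated fatty acids, also moved. LA is a precursor of arachidonic acid, from which prostaglandins are made. Of 19 tested members of this list 6 rose (3 with at least 5 CPM required in 4 libraries) and 4 fell (2 without vehicle replicate 1, vehicle replicate 4, LA replicate 2 or LA replicate 3). Ephx2, soluble epoxide hydrolase, which opens fatty acid epoxides, measured 1.72, 2.48, 2.08 and 2.27 CPM in the LA libraries and 0.737, 0.797, 0.162 and 0.623 CPM in the vehicle libraries (log2FC 1.88, SE 0.34, adjusted p = 0.000123). Hpgd, which inactivates prostaglandins, measured 1.13, 1.43, 1.96 and 1.58 CPM in the LA libraries and 0.491, 0.399, 0.486 and 0.623 CPM in the vehicle libraries (log2FC 1.55, SE 0.36, adjusted p = 0.00203), all near or below 2 CPM. Ptgfr, the receptor of prostaglandin F2α, rose from 5.57 ± 1.13 to 12.4 ± 2.35 CPM (log2FC 1.13, adjusted p = 5.84e-05). Ptgis, prostacyclin synthase, fell from 39.3 ± 3.04 to 30.3 ± 2.62 CPM (log2FC -0.37, adjusted p = 0.00404), and Pla2g6, a calcium-independent phospholipase, fell from 49.8 ± 2.18 to 40.4 ± 2.89 CPM (log2FC -0.299, adjusted p = 0.000352).

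Sterol synthesis fell. In this list 9 of 24 tested members fell and none rose (median log2FC -0.16). Dhcr7, which makes cholesterol from its last precursor, measured 60.9, 55.98, 58.6 and 59.2 CPM in the LA libraries and 93.9, 88.01, 84.4 and 79.9 CPM in the vehicle libraries (log2FC -0.56, SE 0.072, adjusted p = 6.50e-07). Ebp, a sterol isomerase of the same late steps, measured 56.6, 58.6, 57.9 and 66.2 CPM in the LA libraries and 82.1, 77.8, 84.5 and 91.01 CPM in the vehicle libraries (log2FC -0.49, SE 0.063, adjusted p = 7.08e-07). Tm7sf2, a sterol reductase, fell from 13.2 ± 0.831 to 9.56 ± 0.735 CPM (log2FC -0.46, adjusted p = 0.00429). In the opposite direction went Abca1, the cholesterol exporter, which rose from 33.1 ± 4.99 to 50.4 ± 4.51 CPM (log2FC 0.597, adjusted p = 0.000107), and Apoe, an acceptor of exported lipid, which rose from 16.1 ± 3.49 to 33.03 ± 5.11 CPM (log2FC 1.03, adjusted p = 8.83e-05). These were the 2 of 12 members of the efflux list that rose, and none fell. In fatty acid synthesis and desaturation 7 of 24 members fell (4 without vehicle replicate 1, vehicle replicate 2 or LA replicate 3) and 3 rose (1 without vehicle replicates 1, 2 or 4 or LA replicate 4, each left out alone, and 1 with limma-voom). Scd2, a stearoyl-CoA desaturase, measured 1605, 1777, 1661 and 1895 CPM in the LA libraries and 2256, 2219, 2158 and 2121 CPM in the vehicle libraries (log2FC -0.34, SE 0.066, adjusted p = 0.000361), and Tecr, the last reductase of elongation, fell from 342 ± 23.9 to 264 ± 18.4 CPM (log2FC -0.37, adjusted p = 0.00334). Scd1 (log2FC -0.049, SE 0.050, adjusted p = 0.577) and the regulator gene Srebf1 (log2FC -0.045, SE 0.056, adjusted p = 0.652) did not pass.

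The 250 bases before the start of Ebp are printed to show a promoter of the sterol genes that fell, from RefSeq (GRCm38.p6, chrX:8193513-8193762, minus strand). Capitals mark the CCAAT box, read here on the opposite strand as ATTGG, at 170 to 166 and at 55 to 51 bases before the start.
Ebp: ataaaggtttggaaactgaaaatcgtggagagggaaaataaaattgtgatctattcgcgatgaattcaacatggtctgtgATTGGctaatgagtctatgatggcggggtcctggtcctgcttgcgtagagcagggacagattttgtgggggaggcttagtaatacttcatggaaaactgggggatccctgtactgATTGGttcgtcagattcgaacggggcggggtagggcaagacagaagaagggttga
CCAAT on either strand was found in 5 of 7 such windows of the sterol genes that fell (5 of 9 genes matched a window by symbol) and in 33.8% of all 32851 windows. It was also in 14 of 24 windows (58.3%) of the fatty acid genes that rose. A match is a description of letters, not a measured site.

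Genes of the sarcomere were lower with LA. Among thick filament genes 14 of 19 fell (median log2FC -0.35; 9 without LA replicate 2), among thin filament genes 16 of 21 (-0.35), among Z-disc genes 22 of 27 (-0.38), and among titin and M-band genes 12 of 15 (-0.43), where Fhl2 rose. In the first 3 of these lists no member rose. The medians were alike across the lists, and the shares that fell lay far above the 9.38% of all tested genes. In bulk RNA, fewer muscle cells and less RNA of these genes per cell cannot be told apart.

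Acta1, skeletal α-actin, measured 3053, 2666, 3044 and 2865 CPM in the LA libraries and 4052, 3949, 3674 and 4021 CPM in the vehicle libraries (log2FC -0.43, SE 0.051, adjusted p = 1.90e-07). Actc1, cardiac α-actin, which immature muscle also makes, measured 939.7, 770.2, 900.1 and 785 CPM in the LA libraries and 1214, 1200.2, 1089 and 1186 CPM in the vehicle libraries (log2FC -0.47, SE 0.056, adjusted p = 2.01e-07). Within the LA group replicates 2 and 4 were the lowest in both actins, and the groups did not overlap. Tnni1, slow troponin I, fell from 1172 ± 85.9 to 879.9 ± 91.99 CPM (log2FC -0.41, adjusted p = 1.36e-05), and Neb, nebulin, which spans the thin filament, fell from 3118 ± 235 to 2024 ± 131 CPM (log2FC -0.62, adjusted p = 5.81e-05). Myh3, embryonic myosin heavy chain, measured 3489, 3242, 3467 and 3522 CPM in the LA libraries and 4579.8, 4582, 4820.1 and 4817 CPM in the vehicle libraries (log2FC -0.45, SE 0.061, adjusted p = 1.35e-06). Myh1, an adult fast myosin, measured 1768, 1596, 1719.8 and 1726 CPM in the LA libraries and 2620.2, 2536, 2492 and 2331 CPM in the vehicle libraries (log2FC -0.55, SE 0.077, adjusted p = 5.59e-06). Myh3 and Myh1, an embryonic and an adult form, were thus lower together. Mybph, a myosin-binding protein, fell from 989 ± 57.5 to 701 ± 90.7 CPM (log2FC -0.497, adjusted p = 0.000294), and Myl2, a slow regulatory light chain, fell from 19.2 ± 0.8299 to 13.1 ± 1.78 CPM (log2FC -0.54, adjusted p = 0.000535).

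Des, the intermediate filament that ties Z-discs together, measured 1853, 1732, 1913 and 1921 CPM in the LA libraries and 2662, 2568, 2425 and 2571 CPM in the vehicle libraries (log2FC -0.46, SE 0.050, adjusted p = 3.46e-08). Tcap, which anchors titin at the Z-disc, measured 48.4, 38.8, 54.3 and 34.7 CPM in the LA libraries and 67.5, 68.6, 64.1 and 71.3 CPM in the vehicle libraries (log2FC -0.62, SE 0.089, adjusted p = 5.04e-06). The lowest Tcap values were again LA replicates 2 and 4. Ankrd23, a stretch-associated ankyrin protein, fell from 164 ± 10.1 to 108 ± 12.8 CPM (log2FC -0.61, adjusted p = 2.47e-08). Myom3, a myomesin of the M-band, fell from 247 ± 8.91 to 166 ± 10.1 CPM (log2FC -0.57, adjusted p = 2.74e-08). Ttn, titin, the most abundant transcript of its list, measured 10258, 10448, 8009 and 7378 CPM with LA and 10193, 10544, 15666 and 13055 CPM with vehicle. Its groups overlapped and it did not pass (log2FC -0.45, SE 0.22, adjusted p = 0.188).

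**Figure D2:**
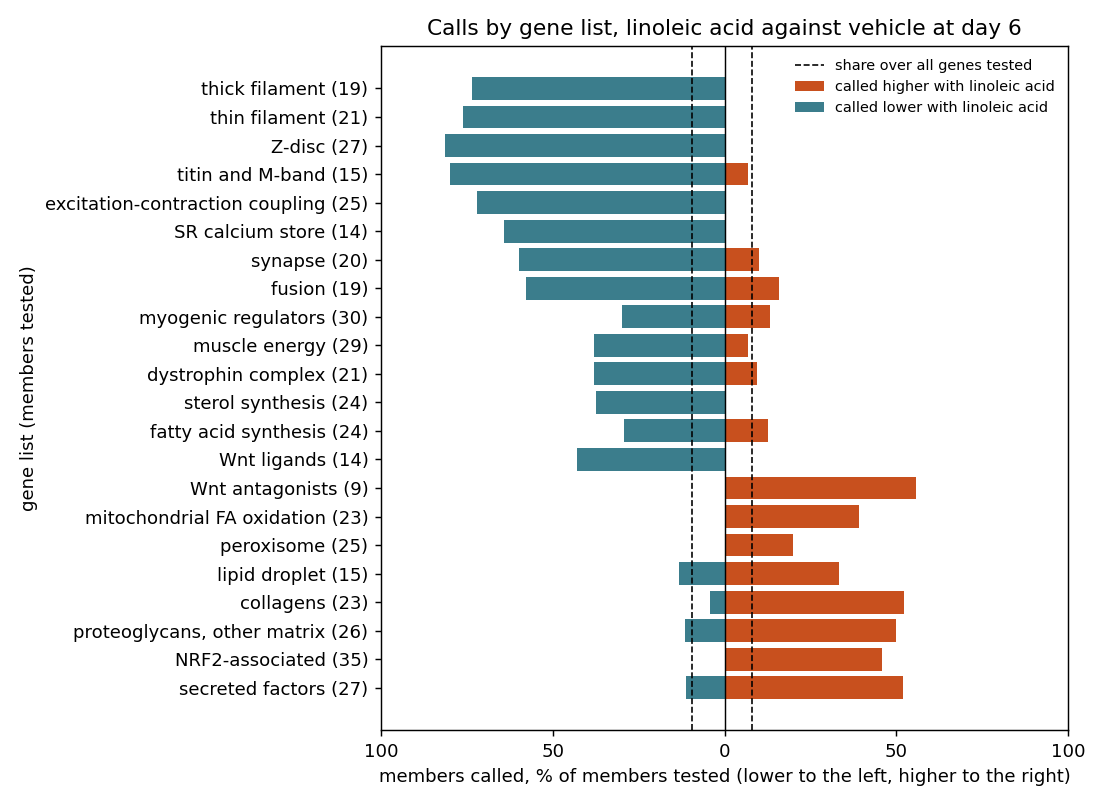
Percent of tested members called higher (orange, right) or lower (blue-green, left) with LA against vehicle at day 6 in 22 gene lists, with the number tested in brackets, FA for fatty acid and SR for sarcoplasmic reticulum. Dashed lines give the share over all genes, 7.83% higher and 9.38% lower; the sarcomere lists extend farthest to the left.

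Promoters of genes that fell are printed for both α-actins and desmin, from RefSeq on GRCm38.p6, as the 250 bases before the start of transcription. Capitals mark the CArG box, the name of the element bound by serum response factor (Acta1 at 73 to 64 and Actc1 at 47 to 38 bases before the start) and the E-box CAGCTG, a form that MyoD family factors bind (Acta1 at 221 to 216, Des at 36 to 31). They also mark CATTCC in Acta1 at 46 to 41, the MCAT motif, which TEAD factors bind. Acta1 lies at chr8:123894776-123895025, minus strand, Actc1 at chr2:114052876-114053125, minus strand and Des at chr1:75360042-75360291, plus strand.
Acta1: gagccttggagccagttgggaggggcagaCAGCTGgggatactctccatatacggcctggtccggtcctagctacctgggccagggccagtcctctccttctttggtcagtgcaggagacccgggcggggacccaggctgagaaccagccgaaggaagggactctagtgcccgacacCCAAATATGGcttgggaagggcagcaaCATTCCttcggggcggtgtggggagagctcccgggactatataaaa
Actc1: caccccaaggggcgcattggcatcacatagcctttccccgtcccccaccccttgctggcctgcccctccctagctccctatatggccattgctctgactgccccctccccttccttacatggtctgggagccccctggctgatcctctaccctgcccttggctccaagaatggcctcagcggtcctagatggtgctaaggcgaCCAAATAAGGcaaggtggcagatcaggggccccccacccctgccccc
Des: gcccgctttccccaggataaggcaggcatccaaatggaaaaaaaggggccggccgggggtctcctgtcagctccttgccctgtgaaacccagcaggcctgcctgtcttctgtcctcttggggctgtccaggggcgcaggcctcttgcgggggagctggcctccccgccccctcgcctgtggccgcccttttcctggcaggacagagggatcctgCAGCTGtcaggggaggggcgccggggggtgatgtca
Of the 64 sarcomere list members that fell, 52 matched by symbol, with 63 windows. The E-box CAGCTG was in 22 of these windows (34.9%, against 13% of all 32851 windows, both strands) and CATTCC in 17 (27%, against 12.6%). The CArG box was in 6 (9.52%, against 1.47%) and the MEF2 site, searched by its consensus, in 5 (7.94%, against 0.508%). These are properties of muscle genes and were not compared between sarcomere genes that fell and those that did not.

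The apparatus that couples the nerve signal to contraction was lower as well. In excitation-contraction coupling 18 of 25 members fell and none rose (median log2FC -0.35). Scn4a, the voltage-gated sodium channel of adult muscle, fell from 64.2 ± 2.99 to 38.8 ± 4.11 CPM (log2FC -0.72, adjusted p = 3.07e-07). Cacna1s, the voltage sensor of the T-tubule, measured 258, 230.1, 257 and 257 CPM in the LA libraries and 389, 400.5, 372 and 353 CPM in the vehicle libraries (log2FC -0.59, SE 0.055, adjusted p = 2.20e-09), and Ryr1, the calcium release channel it opens, measured 588, 537, 563 and 580.3 CPM in the LA libraries and 853, 861, 861 and 839 CPM in the vehicle libraries (log2FC -0.59, SE 0.056, adjusted p = 2.98e-09). These partners differed by the same log2 amount, and in neither did the groups overlap.

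Calcium store genes followed, with 9 of 14 lower and none higher (median -0.35). Atp2a1, the fast-muscle calcium pump, measured 769, 583, 780.2 and 651 CPM in the LA libraries and 1164, 1162, 1019 and 1069 CPM in the vehicle libraries (log2FC -0.67, SE 0.070, adjusted p = 5.17e-08). Casq1, the calcium-binding protein of the store, fell from 104 ± 13.04 to 74.6 ± 9.92 CPM (log2FC -0.47, adjusted p = 0.00126). Pvalb, the calcium buffer parvalbumin, had the steepest drop of the list at a low level, 2.32, 1.24, 0.736 and 1.08 CPM in the LA libraries and 4.01, 4.29, 2.91 and 3.22 CPM in the vehicle libraries (log2FC -1.31, SE 0.26, adjusted p = 0.000427). At the synapse 12 of 20 members fell and 2 rose. Chrng, the embryonic γ subunit of the acetylcholine receptor, measured 246, 204, 239.9 and 233 CPM in the LA libraries and 354, 349.8, 320.3 and 340.1 CPM in the vehicle libraries (log2FC -0.56, SE 0.052, adjusted p = 2.20e-09), and Chrnd, its δ subunit, measured 156, 129, 151 and 140.2 CPM in the LA libraries and 209, 209, 205 and 215 CPM in the vehicle libraries (log2FC -0.54, SE 0.053, adjusted p = 7.19e-09). Erbb3, a neuregulin receptor, fell from 166 ± 6.68 to 115 ± 3.88 CPM (log2FC -0.53, adjusted p = 2.45e-07), while Nrg1, which encodes neuregulin, its ligand, rose from 41.6 ± 0.854 to 55.1 ± 3.26 CPM (log2FC 0.41, adjusted p = 0.000610).

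Energy and membrane genes were lower in part. In the muscle energy list 11 of 29 fell and 2 rose, Fbp2 and Ldha (the latter lost in 7 of 16 alternatives, adjusted p up to 0.151). Pygm, the glycogen phosphorylase of muscle, measured 171, 155, 175 and 174 CPM in the LA libraries and 256, 235, 239 and 229.8 CPM in the vehicle libraries (log2FC -0.51, SE 0.054, adjusted p = 2.33e-08). Gys1, glycogen synthase, fell from 161 ± 5.31 to 116 ± 7.502 CPM (log2FC -0.47, adjusted p = 8.76e-08), and Pfkm, the muscle phosphofructokinase, fell from 576 ± 25.8 to 424 ± 46.02 CPM (log2FC -0.44, adjusted p = 1.40e-05), so that glycogen breakdown, glycogen synthesis and glycolysis were each represented among the falls. In the dystrophin complex list 8 of 21 fell (5 without vehicle replicate 2, vehicle replicate 4 or LA replicate 2, and 5 with library totals alone) and 2 rose. Sgca, α-sarcoglycan, fell from 59.3 ± 3.45 to 41.8 ± 1.48 CPM (log2FC -0.504, adjusted p = 9.65e-07), and Itga7, the laminin-binding integrin of muscle, fell from 1191 ± 51.9 to 897 ± 68.6 CPM (log2FC -0.41, adjusted p = 8.51e-06).

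**Figure D3:**
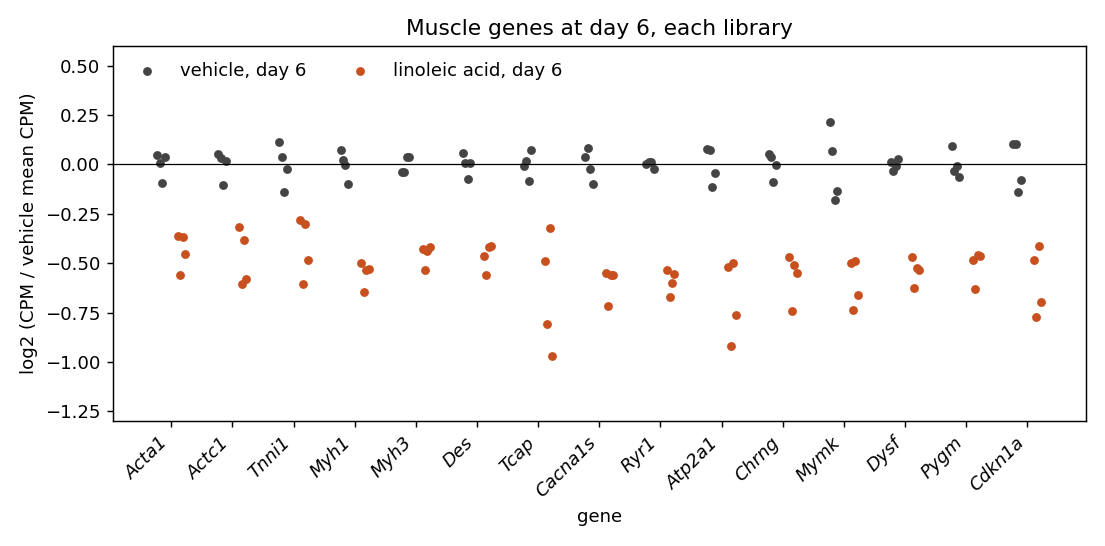
Level of 15 muscle genes in each day 6 library, as log2 of CPM over the vehicle mean (0 is the vehicle mean; vehicle grey, LA orange, 4 points each). In each gene shown the LA points lie below the vehicle points.

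Regulators of myogenesis moved in both directions. In this list 9 of 30 fell and 4 rose (2 without LA replicate 2), with a median log2FC of -0.060. Myod1, the determination factor of muscle, measured 114, 104, 121 and 113 CPM in the LA libraries and 144, 136, 138 and 142 CPM in the vehicle libraries (log2FC -0.31, SE 0.055, adjusted p = 7.55e-05). Mef2c, a late activator of sarcomere genes, fell from 783 ± 17.1 to 622 ± 36.5 CPM (log2FC -0.33, adjusted p = 0.00141), Mef2d fell from 277 ± 7.197 to 221 ± 13.9 CPM (log2FC -0.33, adjusted p = 1.10e-05), and Tead4, which binds the MCAT motif, fell from 123 ± 4.99 to 95.2 ± 6.17 CPM (log2FC -0.37, adjusted p = 2.27e-06). Id3, an inhibitor that blocks MyoD family factors, measured 30.1, 37.2, 33.8 and 38.1 CPM in the LA libraries and 18.7, 14.7, 26.1 and 20.2 CPM in the vehicle libraries (log2FC 0.79, SE 0.17, adjusted p = 0.00191), and Eya1, a coactivator of homeobox factors in myoblasts, rose from 19.4 ± 4.02 to 28.5 ± 3.25 CPM (log2FC 0.56, adjusted p = 0.00332).

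Fusion genes were mostly lower. Mymk, myomaker, the membrane protein required for fusion, measured 346, 294, 349 and 309 CPM in the LA libraries and 567, 512, 432 and 445 CPM in the vehicle libraries (log2FC -0.59, SE 0.069, adjusted p = 2.06e-07). Mymx, myomixer, its partner in fusion, measured 44.4, 36.8, 44.5 and 34.5 CPM in the LA libraries and 51.00, 50.9, 46.5 and 50.02 CPM in the vehicle libraries (log2FC -0.31, SE 0.075, adjusted p = 0.00346), a smaller difference with a narrow gap between the groups. Dysf, dysferlin, which seals membranes, fell from 175 ± 3.23 to 121 ± 5.55 CPM (log2FC -0.54, adjusted p = 1.19e-07), and Cav3, the muscle caveolin, fell from 80.5 ± 5.79 to 61.5 ± 7.46 CPM (log2FC -0.39, adjusted p = 0.000157). Over the list 11 of 19 fell and 3 rose. The count that fell was 7 without vehicle replicate 1 and 6 without vehicle replicate 2 or LA replicate 2. The rises included Elmo1, which measured 16.7, 18.5, 18.5 and 16.8 CPM in the LA libraries and 8.595, 9.57, 9.63 and 6.85 CPM in the vehicle libraries (log2FC 1.01, SE 0.12, adjusted p = 2.70e-07), and Dock1, which rose from 62.1 ± 4.31 to 78.9 ± 6.92 CPM (log2FC 0.34, adjusted p = 0.00126). Their proteins form a complex that activates Rac.

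Genes of unfused, stem-like cells split. Pax7, the satellite cell factor, measured 24.01, 19.5, 21.5 and 22.3 CPM in the LA libraries and 16.2, 12.96, 19.5 and 17.3 CPM in the vehicle libraries (log2FC 0.403, SE 0.091, adjusted p = 0.00159), and Vcam1, an adhesion molecule of satellite cells, measured 277, 335, 291 and 359.9 CPM in the LA libraries and 176, 184, 224 and 199.6 CPM in the vehicle libraries (log2FC 0.69, SE 0.11, adjusted p = 7.46e-05). The lowest LA and the highest vehicle value of Pax7 were almost equal, while the groups of Vcam1 lay well apart. Hes6, which promotes differentiation, fell from 108 ± 5.27 to 83.5 ± 1.09 CPM (log2FC -0.37, adjusted p = 0.000112), and Spry1, a growth factor antagonist of quiescent satellite cells, fell from 56.98 ± 3.43 to 41.3 ± 4.96 CPM (log2FC -0.47, adjusted p = 1.45e-05). Of 18 members 3 rose and 5 fell, with 5 rises under DESeq2 size factors, library totals alone, the stricter filter, only the compared groups in the fit, or without LA replicate 3.

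Cell cycle exit was lower at its main inhibitor. Cdkn1a, p21, measured 1033, 846, 1084 and 892 CPM in the LA libraries and 1553, 1551, 1313 and 1367 CPM in the vehicle libraries (log2FC -0.59, SE 0.067, adjusted p = 1.33e-07), the largest difference in absolute CPM among the exit genes. Cdkn2d, p19, fell from 19.2 ± 1.56 to 13.01 ± 1.49 CPM (log2FC -0.54, adjusted p = 0.000716). In the exit list 5 of 16 fell, and 2 or 3 did so with library totals alone, with no low-count filter, with the replicate number as a block or when any day 6 library was left out. In the cell cycle list 5 of 40 rose (12.5%, against 7.83% of all genes) and 1 fell (2.5%, against 9.38%). The rises included Mcm3 (0.36, adjusted p = 0.00230), Mcm4 (0.33, adjusted p = 0.000252) and Mcm6 (0.32, adjusted p = 0.00162), subunits of the replicative helicase. E2f2, a transcription factor of the E2F family, fell from 96.7 ± 7.45 to 57.4 ± 5.88 CPM (log2FC -0.75, adjusted p = 4.08e-09).

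Extracellular matrix genes rose. In the collagen list 12 of 23 members rose and 1 fell (median log2FC 0.302), and among proteoglycans and other matrix genes 13 of 26 rose and 3 fell (median 0.24). Col12a1, a collagen that decorates fibrils, measured 3213, 3309, 2975 and 3243 CPM in the LA libraries and 1799, 1713, 2167 and 2005 CPM in the vehicle libraries (log2FC 0.73, SE 0.074, adjusted p = 2.70e-08). Omd, osteomodulin, a small leucine-rich proteoglycan, measured 33.6, 44.3, 28.7 and 48.7 CPM in the LA libraries and 7.61, 5.68, 15.2 and 13.4 CPM in the vehicle libraries (log2FC 1.88, SE 0.31, adjusted p = 0.000224). Its groups did not overlap, although the vehicle values themselves ranged over more than 2-fold. Fbln1, fibulin-1, measured 77.7, 113, 81.3 and 115 CPM in the LA libraries and 42.8, 36.1, 52.6 and 42.5 CPM in the vehicle libraries (log2FC 1.15, SE 0.14, adjusted p = 8.63e-06), and Aspn, asporin, rose from 29.1 ± 11.1 to 60.4 ± 8.99 CPM (log2FC 1.08, adjusted p = 0.00107). Col15a1 rose from 2.11 ± 0.758 to 4.196 ± 0.789 CPM (log2FC 1.01, adjusted p = 0.00150). The collagen of this list that fell was Col25a1, made by myotubes and known to guide motor axons, which fell from 24.4 ± 2.46 to 11.7 ± 1.64 CPM (log2FC -1.05, adjusted p = 3.00e-05), and Tnc, tenascin C, fell from 755 ± 79.3 to 475 ± 78.2 CPM (log2FC -0.67, adjusted p = 0.00782).

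Secreted growth factors and chemokines rose more often than they fell, 14 against 3 of 27 (median log2FC 0.41). Angptl4, already counted under fatty acid uptake, was among these rises. Hgf, hepatocyte growth factor, which activates satellite cells, measured 81.8, 108, 90.2 and 113 CPM in the LA libraries and 30.5, 35.6, 50.5 and 41.9 CPM in the vehicle libraries (log2FC 1.31, SE 0.17, adjusted p = 1.48e-05). Cxcl1, a neutrophil chemokine, measured 2.52, 4.96, 3.31 and 4.73 CPM in the LA libraries and 0.982, 0.598, 0.8902 and 2.08 CPM in the vehicle libraries (log2FC 1.77, SE 0.31, adjusted p = 7.68e-05). The insulin-like growth factors moved in opposite directions. Igf1 measured 327, 347, 350.5 and 306 CPM in the LA libraries and 162, 152, 197 and 200.2 CPM in the vehicle libraries (log2FC 0.901, SE 0.087, adjusted p = 6.19e-08), while Igf2, which myotubes make as they differentiate, measured 219, 228, 227 and 194 CPM in the LA libraries and 381, 339.8, 311 and 269 CPM in the vehicle libraries (log2FC -0.59, SE 0.087, adjusted p = 2.49e-05). Among genes of their binding and release, Igfbp2 rose from 9.45 ± 0.533 to 21.3 ± 2.44 CPM (log2FC 1.16, adjusted p = 8.03e-06), and Pappa2, a protease that cuts binding proteins, rose from 5.76 ± 1.84 to 12.6 ± 2.75 CPM (log2FC 1.12, adjusted p = 2.36e-06). Over the axis 6 of 18 rose and 3 fell, Igf2, Stc2 and the binding protein gene Igfbp5 (1 without vehicle replicate 1). The call of Igfbp5 was lost in 13 of 16 alternatives (adjusted p up to 0.25). In the TGF-β and myostatin list 6 of 30 rose (2 without vehicle replicate 2, 3 without LA replicate 2) and 6 fell (3 without vehicle replicate 1 or LA replicate 4). Bmp4 rose from 40.3 ± 6.11 to 64.1 ± 6.29 CPM (log2FC 0.67, adjusted p = 2.67e-05), whereas its antagonist Nog, noggin, fell from 7.19 ± 0.529 to 4.74 ± 0.355 CPM (log2FC -0.62, adjusted p = 0.00134), and Fst, follistatin, which binds myostatin and activins, measured 227, 199.98, 245 and 202 CPM in the LA libraries and 301, 322, 279 and 277 CPM in the vehicle libraries (log2FC -0.43, SE 0.058, adjusted p = 1.33e-06).

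Wnt signalling, which the title of the series names, changed at its secreted antagonists and ligands. Wnt proteins bind Frizzled receptors with LRP coreceptors and stabilise β-catenin, and SFRP and DKK proteins block this outside the cell. Of 9 tested antagonists 5 rose and none fell (median log2FC 0.75). Sfrp2 measured 279, 315, 277 and 286 CPM in the LA libraries and 157, 157, 189 and 149 CPM in the vehicle libraries (log2FC 0.82, SE 0.12, adjusted p = 5.45e-05), and Sfrp1 measured 9.88, 12.7, 10.1 and 15.5 CPM in the LA libraries and 3.52, 2.69, 4.69 and 2.802 CPM in the vehicle libraries (log2FC 1.78, SE 0.25, adjusted p = 1.62e-05). No LA value of either overlapped a vehicle value. Sfrp4 rose from 8.03 ± 1.86 to 15.4 ± 2.46 CPM (log2FC 0.94, adjusted p = 3.55e-06), and Dkk2 rose from 1.77 ± 0.888 to 4.02 ± 1.18 CPM (log2FC 1.13, adjusted p = 0.00641). Ligands and their secretion factors went the other way, with 6 of 14 lower and none higher. Wnt10a measured 15.7, 13.1, 14.96 and 9.75 CPM in the LA libraries and 22.3, 22.7, 22.2 and 26.05 CPM in the vehicle libraries (log2FC -0.79, SE 0.11, adjusted p = 3.12e-06), and Wnt11 fell from 2.93 ± 0.336 to 1.16 ± 0.398 CPM (log2FC -1.35, adjusted p = 0.000122). Receptors split, with 3 of 18 higher (6 with library totals alone, 5 with only the compared groups fitted) and 3 lower. Lrp5, a coreceptor, measured 196, 189, 187 and 169 CPM in the LA libraries and 125, 135, 127 and 122 CPM in the vehicle libraries (log2FC 0.54, SE 0.056, adjusted p = 1.78e-08), Fzd4 rose from 8.22 ± 0.984 to 12.4 ± 1.65 CPM (log2FC 0.62, adjusted p = 0.000181), and Lgr6, a receptor of R-spondins, fell from 6.93 ± 1.49 to 3.19 ± 0.915 CPM (log2FC -1.08, adjusted p = 5.27e-05). Tcf7l1, a repressor at β-catenin targets, rose from 15.9 ± 1.62 to 22.1 ± 1.35 CPM (log2FC 0.47, adjusted p = 0.000325). In its list, of β-catenin and its partners, 4 of 23 rose (17.4%, against 7.83% of all genes), Tcf7l1, Ctnnb1 (β-catenin itself), Dvl2 and Tle1. In the same list 2 fell, Csnk1a1 and Ctbp1 (8.7%, near the 9.38% of all genes). Calls of this list other than Tcf7l1 were each lost in 5 to 7 of 16 alternatives (adjusted p up to 0.177). Of 18 target genes 3 fell, Tnfrsf19, Fst and Axin2 (16.7%, against 9.38% of all genes). The call of Axin2 was lost without vehicle replicate 4 or LA replicate 2 (adjusted p up to 0.0952). Among the same targets 1 rose, Ccn5 (5.56%, against 7.83%).

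Antioxidant and detoxifying genes associated with NRF2 rose, 16 of 35 with none lower (median log2FC 0.19). Gstm1, a glutathione transferase, measured 44.2, 58.9, 40.7 and 54.7 CPM in the LA libraries and 24.2, 22.9, 25.5 and 28.6 CPM in the vehicle libraries (log2FC 0.97, SE 0.15, adjusted p = 5.10e-05), and Gsta4, the transferase of lipid aldehydes such as hydroxynonenal, measured 16.6, 21.5, 19.7 and 22.5 CPM in the LA libraries and 11.9, 10.6, 11.5 and 13.4 CPM in the vehicle libraries (log2FC 0.75, SE 0.103, adjusted p = 1.82e-06). Both were highest in LA replicates 2 and 4. Gpx3, a secreted glutathione peroxidase, rose from 105 ± 10.4 to 174 ± 17.9 CPM (log2FC 0.72, adjusted p = 0.000438), and Abcc4, an exporter of conjugates and prostaglandins, rose from 9.11 ± 1.32 to 13.7 ± 2.03 CPM (log2FC 0.59, adjusted p = 0.000131). In the ATF4 list 3 of 22 rose, Vldlr, Asns and Trib3 (the latter lost without vehicle replicate 4 or LA replicate 1 or 2, adjusted p up to 0.0807), and none fell. In the hypoxia list 10 of 23 rose (6 without vehicle replicate 3 or 4) and 2 fell, and in the interferon list 6 of 23 rose (3 without vehicle replicate 3, vehicle replicate 4 or LA replicate 2), such as Ifih1, an RNA sensor, which rose from 1.43 ± 0.464 to 2.86 ± 0.572 CPM (log2FC 0.93, adjusted p = 0.00705). Of 26 immediate early genes 6 fell and none rose, with Egr3 at 129, 103, 139 and 123 CPM in the LA libraries and 191, 183, 187 and 208 CPM in the vehicle libraries (log2FC -0.64, SE 0.067, adjusted p = 2.28e-08). In the proteasome list 8 of 35 fell (3 to 4 with library totals alone or without any of vehicle replicates 1, 2 and 4 and LA replicates 2 and 4, each left out alone), and Psmc4, a base ATPase, had the deepest fall among the called members (log2FC -0.25, SE 0.062, adjusted p = 0.00353).

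Beyond the lists, the largest rises that kept the groups apart included Ces1a, a carboxylesterase, which measured 5.504, 10.3, 6.37 and 10.2 CPM in the LA libraries and 0.982, 0.897, 1.46 and 0.934 CPM in the vehicle libraries (log2FC 2.88, SE 0.22, adjusted p = 3.39e-11), and Aoc3, an amine oxidase known from fat and vessels, which measured 13.7, 14.9, 13.7 and 16.5 CPM in the LA libraries and 1.56, 2.79, 3.804 and 3.94 CPM in the vehicle libraries (log2FC 2.29, SE 0.15, adjusted p = 1.71e-12). Near-identical carboxylesterase genes make the counts of Ces1a uncertain. Akr1c14, a steroid-reducing aldo-keto reductase, rose from 3.71 ± 1.46 to 13.6 ± 3.35 CPM (log2FC 1.87, adjusted p = 3.89e-08), Prtg, protogenin, rose from 1.44 ± 0.3000 to 5.18 ± 0.533 CPM (log2FC 1.81, adjusted p = 1.39e-07), and Aqp1, a water channel, measured 40.5, 68.7, 45.4 and 67.2 CPM in the LA libraries and 16.4, 10.2, 26.2 and 15.05 CPM in the vehicle libraries (log2FC 1.68, SE 0.24, adjusted p = 6.04e-05). Among the steepest falls were Col23a1, a transmembrane collagen, at 10.1, 3.62, 8.95 and 4.14 CPM in the LA libraries and 30.1, 25.3, 20.3 and 25.4 CPM in the vehicle libraries (log2FC -1.88, SE 0.204, adjusted p = 6.01e-07), and Padi2, which converts arginine to citrulline in proteins, at 22.7, 15.5, 21.6 and 19.4 CPM in the LA libraries and 56.6, 53.3, 46.1 and 55.6 CPM in the vehicle libraries (log2FC -1.41, SE 0.101, adjusted p = 2.13e-11). Igfn1, a muscle protein of the Z-disc, fell from 39.6 ± 5.87 to 16.6 ± 1.06 CPM (log2FC -1.25, adjusted p = 1.16e-05), and Ctrb1, a chymotrypsinogen gene, fell from 29.6 ± 3.13 to 12.03 ± 2.497 CPM (log2FC -1.28, adjusted p = 8.31e-09).

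Markers of other cell types were summed in each library, because a C2C12 culture can hold cells that took another path. The 12 fibroblast markers analysed summed to 1863, 2013, 1919 and 1956 CPM with LA and 1397, 1426, 1607 and 1512 CPM with vehicle. Of these 12, 9 rose. Thy1 and Tcf21 were not among the gene symbols of the deposited counts. Pdgfra, the receptor that marks fibro-adipogenic cells, measured 42.6, 46.1, 43.4 and 46.99 CPM in the LA libraries and 26.2, 26.6, 30.8 and 27.2 CPM in the vehicle libraries (log2FC 0.69, SE 0.082, adjusted p = 1.94e-07), and Dcn, decorin, measured 334, 476, 376 and 395 CPM in the LA libraries and 226, 223, 302 and 252 CPM in the vehicle libraries (log2FC 0.66, SE 0.11, adjusted p = 0.000234). Dpt, dermatopontin, rose from 7.87 ± 0.494 to 12.7 ± 2.58 CPM (log2FC 0.68, adjusted p = 0.000462). The 10 muscle markers summed to 11031, 10025, 11106 and 10814 CPM with LA and 14706, 14405, 13976 and 14608 CPM with vehicle, and 10 of 10 fell. Of 12 fat cell markers 4 were analysed, Lpl, Lipe, Cebpa and Pparg, and 4 rose, from a sum of 29.0 to 33.7 CPM to one of 67.5 to 85.2 CPM. Lpl, also described above as a fatty acid gene, alone averaged 6.06 CPM with vehicle and 37.8 CPM with LA. The defining fat cell markers Adipoq, Plin1, Fabp4 and Cidec were not among the gene symbols of the deposited counts, so they could not be tested. Endothelial markers summed to 2.56 to 3.85 CPM with LA and 2.89 to 4.45 CPM with vehicle, and macrophage markers to 7.82 to 8.62 and 7.70 to 8.58 CPM, with none of the 5 tested called in the edgeR test and 0 at an unadjusted p under 0.05. Smooth muscle markers summed to 2040 to 2215 CPM with LA and 1992 to 2293 CPM with vehicle, and none of 7 was called in the edgeR test, with 2 at an unadjusted p under 0.05. Of the bone and cartilage markers 2 of 4 rose, with sums of 316 to 351 and 232 to 256 CPM, of the tendon markers 1 of 3 fell, and of the neural markers none of 2 was called, with 0 at an unadjusted p under 0.05. DESeq2 and limma-voom also called 0 members of the endothelial, macrophage, smooth muscle and neural lists. The part of these cell types in the falls of muscle genes and the rises of matrix and secreted genes was not tested.

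**Figure D4:**
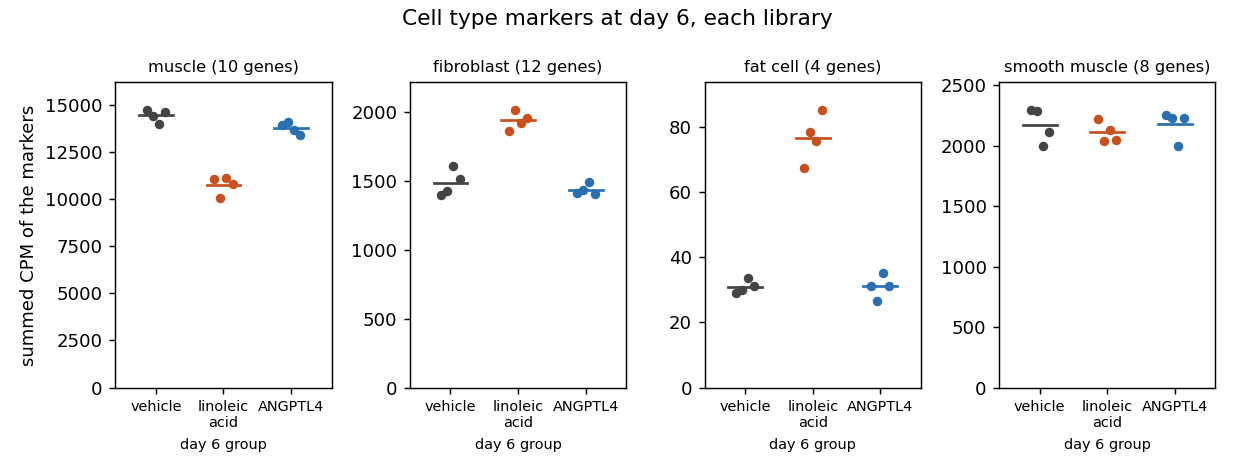
Summed CPM of the markers of 4 cell types in each day 6 library (points) with the group mean (line), for vehicle, LA and ANGPTL4; each axis starts at 0. The LA libraries are lowest for muscle markers and highest for fibroblast and fat cell markers, and the groups overlap for smooth muscle markers.

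Libraries within the LA group differed along the same genes. Replicates 2 and 4 had the lower Acta1, Tcap, Cdkn1a and Atp2a1 and the higher Fbln1, Hgf, Omd, Aqp1 and Gstm1 of the 4, in the values above, and also the higher Lpl and Ces1a. Angptl4 and Ucp2 ran the other way and were higher in replicates 1 and 3, while Cpt1a, Plin2 and Igf1 showed no such split. These genes were singled out after their values were seen.

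A direct comparison with ANGPTL4-treated cells of day 6 asked whether the protein whose gene LA raised most gives the same levels. LA and ANGPTL4 libraries differed in 1809 of 12994 genes (13.9%), 858 higher (6.60%) and 951 lower (7.32%) with LA. Higher calls made up 47.4%, and 62.9% with library totals alone. ANGPTL4 replicate 1 stood apart in a principal component analysis of all 24 libraries (18.7 on the second component, against -9.37 to -6.65 for the others), and 1588 genes differed without it. Angptl4 transcript averaged 19.05 ± 2.06 CPM with ANGPTL4 protein, near the vehicle mean of 20.8 ± 0.759 CPM. Cpt1a averaged 80.3 ± 4.64 CPM (LA against ANGPTL4, log2FC 1.63, adjusted p = 2.06e-22), and Acta1 averaged 3733 ± 45.4 CPM (-0.36, adjusted p = 5.31e-06). Lower with LA than with ANGPTL4 were 13 of 19 thick filament, 18 of 21 thin filament, 21 of 27 Z-disc, 12 of 15 titin and M-band and 16 of 25 coupling members, and 10 of 24 sterol synthesis members. Higher with LA were 7 of 23 mitochondrial oxidation, 7 of 9 Wnt antagonist, 12 of 23 collagen and 13 of 35 NRF2 members. Without ANGPTL4 replicate 1 the counts were 12, 17, 21, 11, 14 and 10 for the lower lists and 5, 6, 9 and 11 for the higher lists, in that order. Igf2, at 252 ± 21.99 CPM with ANGPTL4, did not pass (LA against ANGPTL4, log2FC -0.22, SE 0.088, adjusted p = 0.110).

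The effect of LA at day 6 was set against its effect at day 2 by the difference of the 2 effects in the same model. It passed in 2554 genes (19.7%), 1128 toward higher (8.68%) and 1426 toward lower (11.0%) at day 6. Replicate 3 of the day 2 LA libraries stood apart (-19.3 on the second component, against 1.32 to 4.07), and without it 1878 genes passed, 982 and 896. Angptl4 was raised at both days and more at day 6 (log2FC 2.01 at day 2, difference 1.77, adjusted p = 5.67e-15). Cpt1a (0.68 at day 2, difference 1.11) and Plin2 (0.45, difference 0.54) did the same. Ucp3 stood at 1.297 at day 2, and its difference did not pass (adjusted p = 0.775). Pdk4, by contrast, stood at 0.017 at day 2 (adjusted p = 0.941), with a difference of 1.56. Mean levels of Lpl were lower at day 6 than at day 2 in both groups. With LA it averaged 64.7 CPM at day 2 and 37.8 CPM at day 6, with vehicle 51.7 and 6.06 CPM. Apoe averaged 55.8 and 33.0 CPM with LA, and 51.1 and 16.1 CPM with vehicle. Neither gene passed for LA against vehicle at day 2 (adjusted p = 0.189 and 0.552). Change over days within a group was not tested. Of the 82 sarcomere and coupling genes that fell at day 6, 10 were also lower with LA at day 2, among them Neb (log2FC -0.38, adjusted p = 0.0122), 3 were higher and 69 were not called. Acta1 stood at 0.011 at day 2 (adjusted p = 0.915; difference -0.44, adjusted p = 8.02e-05) and Des at -0.011 (adjusted p = 0.909; difference -0.45). Mymx was higher with LA at day 2 (0.38, adjusted p = 0.00144) and lower at day 6. The difference was toward lower in 10 of 19 thick filament, 10 of 21 thin filament, 15 of 27 Z-disc and 14 of 25 coupling members, and in 7, 7, 13 and 12 without day 2 LA replicate 3. It was toward higher in 11 of 23 collagens and 10 of 27 secreted factors, and in 7 and 12 without that library.

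**Figure D5:**
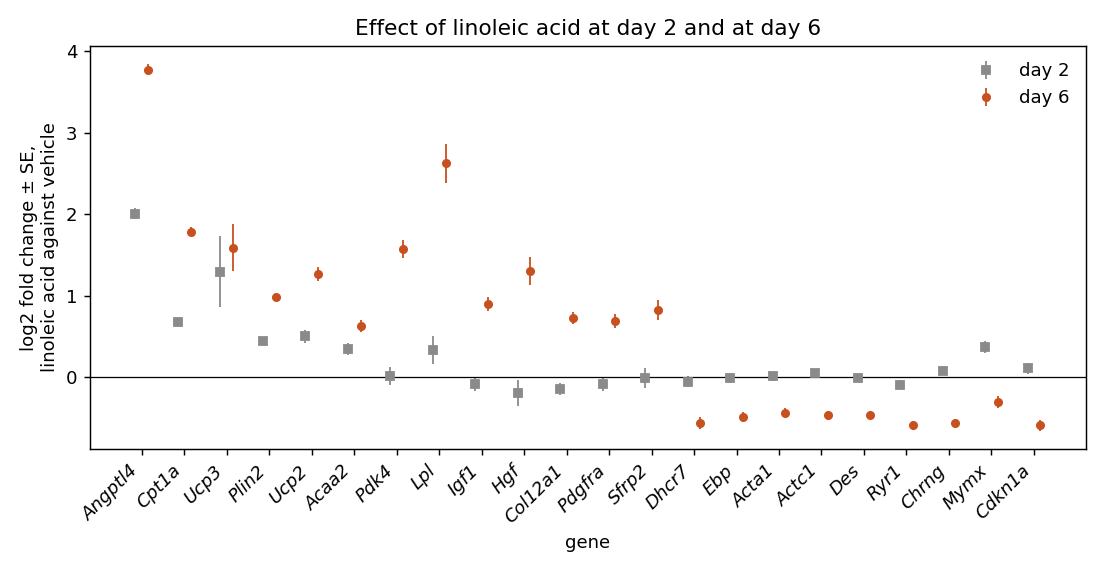
Log2 fold change of LA against vehicle at day 2 (grey squares) and day 6 (orange circles) for 22 genes, with the standard error as bars. The actins, Des, Ryr1 and Chrng lie near 0 at day 2 and below 0 at day 6, Mymx goes from above to below 0, and Angptl4, Cpt1a and Plin2 lie above 0 at both days.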

How the data were processed

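Per the labels' protocols, total RNA with an integrity number over 7 went into QuantSeq 3′ libraries. Trimmomatic, STAR 2.7.1a, HTSeq 0.9.1, DESeq2, DESeq and the build mm39 were named, per the submitters' processing notes, which give no order or settings. The table the authors deposited holds raw counts (whole numbers) of 14693 gene symbols in 24 libraries of 6 groups. The lowest total of a gene was 51 counts, and the filter behind this, the strand setting and the handling of near-identical genes are not given in the sources used here.

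From these counts, filterByExpr removed 1699 genes and left 12994. Counts were scaled with TMM factors in edgeR 4.0.16 (R 4.3.3) and fitted in 1 robust quasi-likelihood model of group means over 24 libraries, with 18 residual degrees of freedom. P-values were adjusted by Benjamini-Hochberg over the 12994 genes, and rose, fell and called mean an adjusted p under 0.05. Each adjusted p is from this test, log2FC is its log2 fold change, and its SE is approximate, from the fold change and the F statistic. Values after ± are SD of 4 libraries. Contrasts were LA against vehicle and against ANGPTL4 at day 6, and the LA effect at day 6 minus that at day 2. Principal components used log2 CPM with a prior count of 2.

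The members and gene lists were chosen with earlier results of these data known. Some genes stand in more than 1 list, such as Angptl4 (uptake and secreted factors), Vldlr (uptake and ATF4) and Pdk1 (pyruvate dehydrogenase and hypoxia). Fbln1 stands among matrix genes and fibroblast markers, so list counts are not independent of each other. Genes named are a panel of muscle, lipid and Wnt genes, 12 called genes from each end of the fold change ranking that reached 5 CPM and whose groups did not overlap, and up to 4 called members a list in each direction. The printed ones were then selected with their values in view, favouring calls that the alternatives left in place. Promoters are RefSeq windows on GRCm38.p6, matched by symbol, and no coordinate of mm39 was used.

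Alternatives were DESeq2 size factors, library totals alone, no low-count filter, at least 5 CPM in 4 libraries, limma-voom (limma 3.58.1), DESeq2 1.42.0, a fit of the compared groups alone, a block for the replicate number and leaving out each library. The code was tested on simulated data. Replicate libraries differed by more than counting noise, so none was counted as a duplicate.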

Additional observations from a re-analysis of the deposited data

Results flagged for a closer look

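Libraries that lay far from the rest of their group were looked for among the 130 genes named, in 260 groups of 4, by the gap to the nearest value over the range (Dixon's ratio, at its 95% critical value). Such a library was found in 10 groups, and chance gives about 1 in 20. With vehicle they were Plin4 at 5.42 CPM and Ces1a at 1.46 CPM in replicate 3, Bmp4 at 49.4 CPM in replicate 3, Ucp3 at 1.40 CPM in replicate 2, Tead4 at 130.2 CPM and Col15a1 at 0.982 CPM in replicate 1, and Wnt10a at 26.0 CPM in replicate 4. With LA they were Cacna1s at 230.1 CPM, Pygm at 155 CPM and Tead4 at 86.0 CPM, all in replicate 2.

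The LA effect differed between day 6 and day 2, by the difference tested in the model, in 108 of the 130 named genes, 53 toward higher and 55 toward lower. Over all tested genes the share was 19.7% (2554 of 12994). Most of the 130 were named for their call at day 6, and the difference uses the same day 6 values. A high share was therefore built in by the choice of genes. Of the 108, 99 kept the call without replicate 3 of the day 2 LA libraries, and none changed sign. The 9 that lost it were Vldlr, Hpgd, Tecr, Myh1, Myl2, Casq1, Col15a1, Nog and Lgr6 (adjusted p 0.0509 to 0.151). The values below are log2FC at day 6 minus log2FC at day 2.

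Among genes of fatty acid handling, the difference was toward higher in Angptl4 1.77, Lpl 2.29, Plin4 2.099, Plin2 0.54, Lipe 0.83, Cpt1a 1.11, Acaa2 0.28, Ucp2 0.77, Pdk4 1.56, Pdk1 0.44 and Vldlr 0.48. Among other large rises, the difference was toward higher in Ces1a 2.25, Aoc3 2.08, Akr1c14 1.47, Prtg 1.695 and Aqp1 1.39. Among oxylipin genes, the difference was toward higher in Ephx2 1.94, Hpgd 1.55 and Ptgfr 0.77. Among oxylipin genes, the difference was toward lower in Ptgis -0.55 and Pla2g6 -0.37. Among sterol and fatty acid synthesis genes, the difference was toward higher in Abca1 0.501 and Apoe 0.903. Among sterol and fatty acid synthesis genes, the difference was toward lower in Dhcr7 -0.51, Ebp -0.48, Tm7sf2 -0.64, Scd2 -0.31 and Tecr -0.37. Among sarcomere genes, the difference was toward lower in Myh1 -0.33, Myl2 -0.898, Mybph -0.62, Myh3 -0.26, Actc1 -0.52, Acta1 -0.44, Tnni1 -0.57, Tcap -0.91, Ankrd23 -0.62, Des -0.45 and Myom3 -0.45. Among genes of excitation, calcium, synapse, energy and membrane, the difference was toward higher in Nrg1 0.74. Among genes of excitation, calcium, synapse, energy and membrane, the difference was toward lower in Scn4a -0.61, Cacna1s -0.43, Ryr1 -0.499, Pvalb -1.62, Atp2a1 -0.62, Casq1 -0.43, Chrng -0.64, Chrnd -0.54, Erbb3 -0.33, Pygm -0.404, Gys1 -0.37, Pfkm -0.36, Sgca -0.62 and Itga7 -0.43. Among other steep falls, the difference was toward lower in Padi2 -1.35, Igfn1 -1.69, Ctrb1 -1.64 and Col25a1 -0.81. Among myogenic, fusion and reserve cell genes, the difference was toward higher in Eya1 0.62, Elmo1 1.06, Dock1 0.54, Pax7 0.48 and Vcam1 0.68. Among myogenic, fusion and reserve cell genes, the difference was toward lower in Tead4 -0.38, Mef2d -0.300, Myod1 -0.39, Mymk -0.67, Mymx -0.68, Dysf -0.46, Cav3 -0.55, Hes6 -0.55 and Spry1 -0.43. Among cell cycle genes, the difference was toward higher in Mcm3 0.42, Mcm4 0.37 and Mcm6 0.31. Among cell cycle genes, the difference was toward lower in Cdkn1a -0.696, Cdkn2d -0.84 and E2f2 -0.72. Among matrix and fibroblast genes, the difference was toward higher in Omd 1.87, Fbln1 1.13, Aspn 1.197, Col15a1 0.86, Col12a1 0.87, Pdgfra 0.78 and Dcn 0.56. Among growth factor genes, the difference was toward higher in Hgf 1.503, Cxcl1 1.56, Igf1 0.99, Igfbp2 0.97, Pappa2 1.13 and Bmp4 0.64. Among growth factor genes, the difference was toward lower in Igf2 -0.598, Fst -0.36 and Nog -0.55. Among Wnt genes, the difference was toward higher in Sfrp1 1.89, Sfrp2 0.83, Sfrp4 0.79, Lrp5 0.51, Fzd4 0.64 and Tcf7l1 0.52. Among Wnt genes, the difference was toward lower in Wnt10a -0.66 and Lgr6 -0.78. Among stress response and other genes, the difference was toward higher in Gsta4 0.38, Gpx3 0.65, Abcc4 0.61 and Ifih1 1.403. Among stress response and other genes, the difference was toward lower in Egr3 -0.39 and Psmc4 -0.37.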

How the results depend on the processing

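The count of genes that LA changed against vehicle at day 6 (2237) was 1609 to 2608 over 16 alternatives, the fewest without vehicle replicate 1 and the most with only the compared groups fitted, and 1609 to 2034 with a library left out. It was 2097 with DESeq2, 2151 with limma-voom and 2130 with the replicate number as a block. Same-numbered LA and vehicle libraries of day 6 did not deviate together (r of 0.0182, -0.172, -0.124 and 0.00269), so the numbers were not taken as pairs. Against ANGPTL4 (1809) the count was 1272 without LA replicate 2 and at most 2124, and for the day difference (2554) it was 1806 without vehicle replicate 1 of day 6 and at most 2820. Scaling by library totals moved calls from lower to higher, without moving the median of all genes by as much as 0.1 on the log2 scale. Of 248 named genes called against vehicle, 179 kept the call under each alternative that tested them, 69 lost it in at least 1, and none reversed. There were 16 alternatives, but 15 for 14 of these genes, which were not tested when at least 5 CPM was required in 4 libraries. Among the genes printed with values, 1 lost the call, Pparg. List counts that moved by over 1.5 times stand beside the count where it was 3 or more, except in the β-catenin list, where lost calls are given. In the respiratory chain list 11 of 93 fell, but 2 without vehicle replicate 1 and 21 with only the compared groups, so it is not described above. Depth limits genes under about 5 CPM, such as Ucp3, Hpgd, Ephx2, Wnt11, Col15a1 and Pvalb, where 1 CPM is about 10 counts a library.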

Other observations

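Long noncoding transcripts and clock genes showed little with LA at day 6, while atrophy and autophagy genes moved in both directions. Of 10 tested long noncoding transcripts on the list none was called in the edgeR test, 2 had an unadjusted p under 0.05, and DESeq2 and limma-voom also called 0. In the atrophy and autophagy list 3 of 22 rose (13.6%, against 7.83% of all genes) and 4 fell (18.2%, against 9.38%). The rises, Bnip3, Nedd4 and Sqstm1, kept the call in each of 16 alternatives. Of the falls, 0 to 2 remained with library totals alone or without any of vehicle replicates 1 and 4 and LA replicates 2, 3 and 4, each left out alone. In the list of glucocorticoid and clock genes 1 of 20 fell. Of 78 mitochondrial ribosomal protein genes 3 fell and none rose, but 0 fell without LA replicate 2 or LA replicate 4, and 1 fell with limma-voom or without vehicle replicate 1, 2 or 4 or LA replicate 3.

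The respiratory chain list differed more between days than at day 6 alone. The LA effect was lower at day 6 than at day 2 in 61 of 93 members, and in 46 of 93 without replicate 3 of the day 2 LA libraries, against 11.0% of all genes. With all libraries the median log2FC of LA against vehicle in this list was 0.41 at day 2 and -0.16 at day 6. The day 2 median was the larger in size, but it was not taken again without replicate 3 of the day 2 LA libraries. How much of the difference lay at day 2 was not tested.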
